A study of Homo sapiens with 6 samples.

Results

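The MYC, MAX and MXD network was followed in MOLM-14 leukaemia cells kept with or without cortistatin A (CA). Its 9 genes are MYC, MAX, MXD1, MXD3, MXD4, MXI1, MNT, MLX and MLXIP, and every probe set that the platform annotation gives to only 1 of them was taken. This gave 23 probe sets of 8 genes among the 54613 probe sets that are not array controls. MXD4 had no probe set of its own, since its 3 probe sets are annotated to a microRNA gene as well, and it is not analysed here. MOLM-14 is an established human acute myeloid leukaemia line with an MLL-AF9 rearrangement. RNA from 3 wells kept in DMSO, the vehicle, and from 3 wells kept in 10 nM CA, each for 24 h, was hybridised to 1 Affymetrix U133 Plus 2.0 array per well. CA is a steroidal alkaloid that inhibits CDK8 and CDK19, kinases of the Mediator complex, and the comparison asks which transcripts differ after their inhibition. A single line was studied, and nothing in the labels says that the wells came from separate cultures, and the p-values therefore reflect the spread among these wells alone, part of which may be technical.

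Proteins of this network bind DNA as dimers through a basic helix-loop-helix leucine zipper. MAX is the shared partner. MYC with MAX activates genes of growth and proliferation at E-box sequences, whereas MXD proteins, MXI1 and MNT compete for MAX and recruit SIN3 corepressors, and MXD1 is known for its rise during myeloid differentiation. MLX is the partner of MLXIP (MondoA), a sensor of glucose metabolites, and also dimerises with some MXD proteins and MNT, which links the branches of the network.

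Values are log2 intensities per probe set, and a probe set was called at an adjusted p under 0.05 (limma, adjusted over all 54613). Arrays of a group correlated across probe sets at r = 0.998, and arrays of different groups at 0.996 to 0.997. The GAPDH 3' minus 5' control, a measure of RNA integrity, was 0.35 to 0.40 in DMSO and 0.44 to 0.53 in CA (log2; exact permutation p = 0.1, the smallest that 3 against 3 arrays allow). The ACTB 3' minus 5' control overlapped between groups, at 2.15 to 2.40 in DMSO and 2.34 to 2.46 in CA (exact permutation p = 0.3). Their part in the results was not tested. Of 8 measured markers of the myeloid line, 7 were above the median probe set and SPI1 was below it, with CD33 and HOXA9 not analysed here. The mean of these 8 was 9.18 to 9.22 in DMSO and 9.08 to 9.12 in CA. Of 6 T and NK cell markers 5 were below the median probe set, and their mean was 5.16 to 5.23 in DMSO and 5.14 to 5.18 in CA. Means were 6.36 to 6.41 and 6.45 to 6.53 for 4 B cell markers, 5.35 to 5.41 and 5.37 to 5.49 for 3 erythroid markers, and 5.57 to 5.60 and 5.61 to 5.72 for 7 epithelial and stromal markers. Only 1 of the 4, 1 of the 3 and 4 of the 7 were below the median probe set (5.61). The brightest were PAX5, with means of 9.68 in DMSO and 10.10 in CA, and KRT18, with 9.49 and 9.75. The markers thus do not all separate the myeloid line from other cell types. Per gene, 1 myeloid marker rose (MEIS1) and 3 fell (ITGAM, CSF1R and CD4), NKG7 of the T and NK list fell, and PAX5 of the B cell list and KRT18 of the epithelial list rose. Among all genes, 6.64% were called higher and 4.49% lower. Per probe set, PAX5 was called on 1 of its 2, with the other at -0.02, and ITGAM on 1 of its 2, with the other at -0.13. With 1 array left out, ITGAM, NKG7 and PAX5 were called per gene in 6 of 6 fits, CSF1R in 5 (adjusted p up to 0.0520), MEIS1 in 2 (up to 0.0717), CD4 in 1 (up to 0.133) and KRT18 in 0 (up to 0.102). CSF1R lost its call without DMSO replicate 3, CD4 kept its own only without DMSO replicate 3, and MEIS1 only without DMSO replicate 1 or without CA replicate 3. The part of these markers in the results was not tested.

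Within the network, MXI1 fell and MXD1 rose on 1 of its 3 probe sets, while MYC, MAX, MXD3 and MNT were not called on any probe set. Called probe sets were 1 higher and 1 lower of 23, against 5.01% called among all probe sets (3% higher, 2.01% lower). At an unadjusted p under 0.05, 1 member probe set was higher and 6 were lower, a threshold that 18.5% of all probe sets passed in either direction. The CA and DMSO values did not overlap in 10 of the 23 (4 higher, 6 lower), where 25.1% of all probe sets did not (12.1% higher, 13.1% lower). The same 6 were lower by both measures. They were MXI1 202364_at, MLXIP 202519_at and MLX 210752_s_at, 213708_s_at, 217909_s_at and 217910_x_at. The 4 higher were MXD1 226275_at and 228846_at, MYC 202431_s_at and MAX 209331_s_at. Probe sets of 1 gene are not independent, so these counts are not counts of genes, and most of the lower ones are of MLX. The median change of the 23 was -0.02, against -0.01 for all probe sets.

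**Figure D1:**
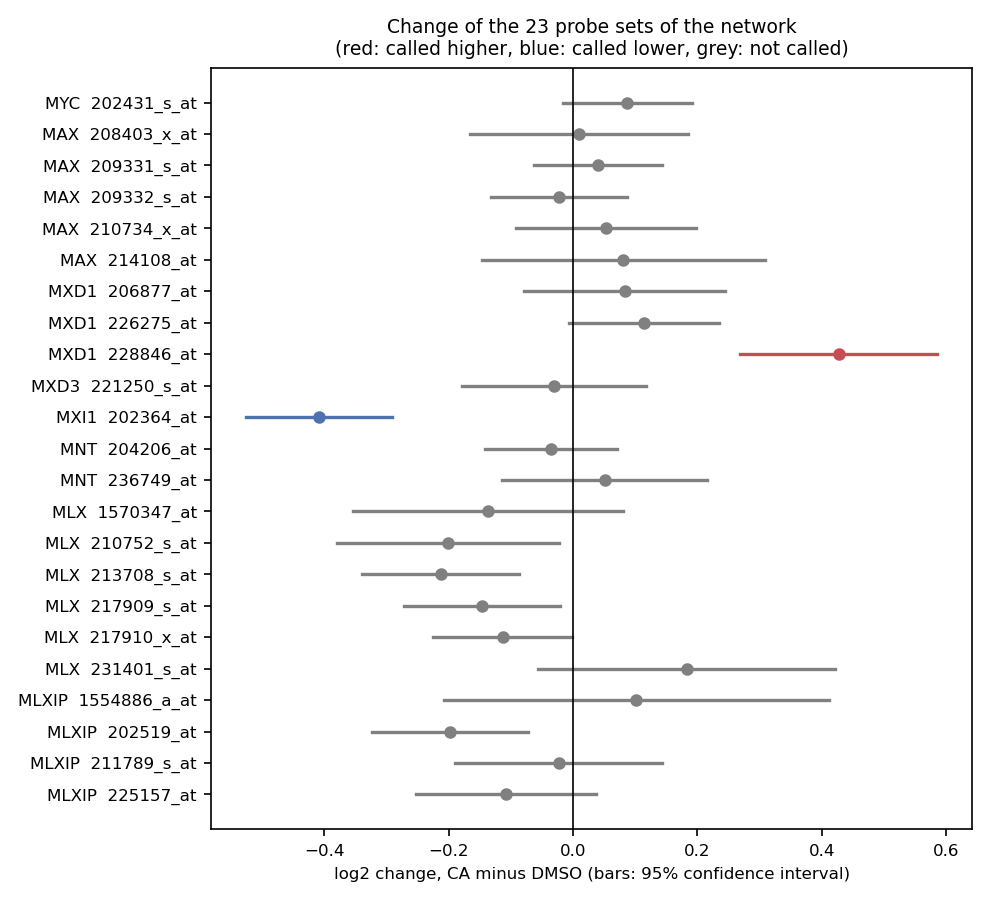
Change of each of the 23 probe sets, as the log2 difference of CA minus DMSO on the horizontal axis, with bars for the 95% confidence interval from limma. MXI1 stands at -0.41 and 1 probe set of MXD1 at 0.43, and the grey probe sets were not called.

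MYC was detected by 1 probe set, 202431_s_at. It was at 12.91, 12.92 and 12.94 (log2) on the DMSO arrays and at 13.02, 12.99 and 13.02 on the CA arrays. Each CA value was above each DMSO value, but the difference was small, at 0.09 on the log2 scale (SE 0.04, 95% confidence interval -0.02 to 0.19), and it was not called (adjusted p = 0.356). In the limma fit per gene, on the same probe set, the interval was 0.004 to 0.170 and left out 0. It was not called there either (unadjusted p = 0.0423, adjusted p = 0.179). With an intensity trend and robust moderation in the fit per probe set, MYC was called higher (adjusted p = 0.00747). Both intervals leave out a measured change of this probe set as large as that of MXI1 or of the called MXD1 probe set. The probe set lay at percentile 99.2 of all probe sets by mean, and whether so bright a signal shows a transcript change in full was not tested.

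MAX, the partner of both MYC and its antagonists, was measured by 5 probe sets, and none was called. Changes ran from -0.02 to 0.08, with adjusted p of 0.694 to 0.964. On the brightest, 209332_s_at, the DMSO arrays were at 9.69, 9.64 and 9.67 and the CA arrays at 9.67, 9.61 and 9.65, so the groups overlapped. The 95% confidence interval of that difference was -0.13 to 0.09. On 209331_s_at the CA arrays (7.76 to 7.80) were above the DMSO arrays (7.74 to 7.75), by 0.04.

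MXI1, a MAX-binding repressor also called MXD2, fell. Its probe set 202364_at was at 11.43, 11.39 and 11.38 in DMSO and at 11.05, 10.95 and 10.97 in CA. All CA arrays were below all DMSO arrays, by several times the spread within either group. Means were 11.40 ± 0.03 and 10.99 ± 0.05 (SD, n = 3), a log2 change of -0.41 (SE 0.05, adjusted p = 0.00593), or 1.33-fold lower. With any 1 array left out the change was -0.44 to -0.39 with adjusted p of 0.0181 to 0.0330. MXI1 rests on this 1 probe set, which does not separate the transcripts of its 3 start sites in the RefSeq promoter table. The 250 bases before the first of them are shown because MXI1 had the strongest call of the network (GRCh38.p14, chr10:110207355-110207604, plus strand). The windows of all 3 starts were searched for the E-box CACGTG, which reads the same on both strands, and did not hold it.
MXI1: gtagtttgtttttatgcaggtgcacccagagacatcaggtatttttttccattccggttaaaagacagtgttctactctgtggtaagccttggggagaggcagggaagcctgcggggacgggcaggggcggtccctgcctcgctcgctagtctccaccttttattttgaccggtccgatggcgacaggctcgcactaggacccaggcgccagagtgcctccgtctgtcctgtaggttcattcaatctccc

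MXD1, the antagonist known for its rise in differentiating myeloid cells, was called higher on 228846_at. The DMSO arrays were at 7.30, 7.45 and 7.23 and the CA arrays at 7.80, 7.73 and 7.74. The groups did not overlap, and the DMSO arrays were the more spread. Means were 7.33 ± 0.11 and 7.75 ± 0.04 (SD, n = 3), a log2 change of 0.43 (SE 0.07, adjusted p = 0.0159), or 1.34-fold higher. It held without DMSO replicate 2 (adjusted p = 0.0167) and was lost without any other single array (0.0551 to 0.0668), at changes of 0.38 to 0.49.

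The other MXD1 probe sets moved less. On 226275_at, the brightest of the 3, the DMSO arrays were at 8.48, 8.45 and 8.45 and the CA arrays at 8.55, 8.53 and 8.65, again without overlap. The difference was 0.11 (95% confidence interval -0.01 to 0.23, adjusted p = 0.294). On 206877_at the values were 4.42 to 4.62 in DMSO and 4.53 to 4.66 in CA, near the lower quartile of the arrays (4.12), and the groups overlapped. All 3 probe sets thus pointed higher with 1 called, and their sizes of 0.08, 0.11 and 0.43 disagree. The mean of the 3 was called higher per gene (0.21, adjusted p = 0.0251), whereas the brightest probe set was not (adjusted p = 0.166). The 250 bases before the MXD1 start are set beside those of MXI1, since both genes encode MAX-binding repressors and their calls have opposite signs (GRCh38.p14, chr2:69914859-69915108, plus strand), and CACGTG was not found in them either.
MXD1: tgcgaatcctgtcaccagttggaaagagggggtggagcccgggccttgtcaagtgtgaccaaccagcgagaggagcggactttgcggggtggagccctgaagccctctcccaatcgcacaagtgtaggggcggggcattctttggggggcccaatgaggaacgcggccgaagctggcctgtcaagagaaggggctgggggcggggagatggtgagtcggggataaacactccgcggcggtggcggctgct

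**Figure D2:**
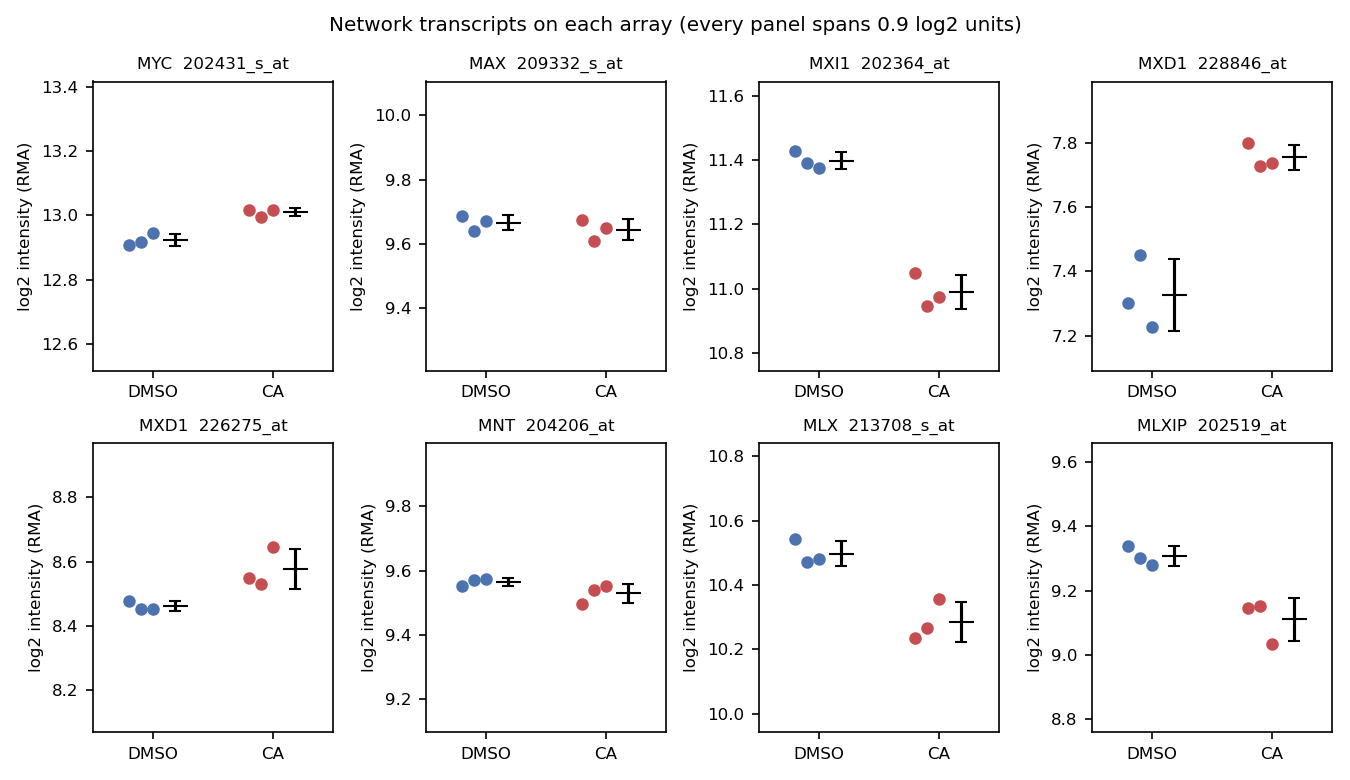
Log2 intensity on each of the 6 arrays for 8 probe sets of the network, with DMSO in blue, CA in red, and the mean ± SD (n = 3) in black. Every vertical axis spans the same number of log2 units, and the groups separate in MXI1, in both MXD1 probe sets, in MLX, in MLXIP and narrowly in MYC, but not in MAX or MNT.

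MXD3, the antagonist known from the S phase of proliferating progenitors, and MNT, the most broadly expressed antagonist, were not called. MXD3 was at 7.66, 7.65 and 7.48 in DMSO and at 7.55, 7.59 and 7.56 in CA, a difference of -0.03 (95% confidence interval -0.18 to 0.12, adjusted p = 0.856). MNT on 204206_at was at 9.55, 9.57 and 9.57 in DMSO and at 9.50, 9.54 and 9.55 in CA, a difference of -0.04 (-0.14 to 0.07, adjusted p = 0.751). Groups overlapped in both. The dimmer MNT probe set, 236749_at, was at 0.05 (adjusted p = 0.770). The signs of MXD3 and of MNT on 204206_at turned positive with arrays centred on reference genes, at 0.0087 and 0.0041.

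Because an array compares transcripts of the same cells, the log2 of each antagonist minus that of MYC was also compared, for its change and not as a level. In MXI1 this difference was -1.48, -1.52 and -1.57 in DMSO and -1.97, -2.05 and -2.04 in CA, so it was lower on every CA array, by 0.50. In MNT it was -3.36, -3.35 and -3.37 in DMSO and -3.52, -3.46 and -3.46 in CA, lower by 0.12 on average. Most of that came from MYC, which was at 0.09, while MNT itself was at -0.04 with overlapping groups, and neither was called. MXD1, by its brightest probe set, and MXD3 overlapped between groups, with mean differences of 0.03 and -0.12. The exact permutation p, 2-sided, was 0.1 for MXI1 and MNT, 0.3 for MXD3 and 0.7 for MXD1, and 0.2, 0.2, 0.4 and 0.7 after Benjamini-Hochberg adjustment over the 4 comparisons. With 3 against 3 arrays 0.1 is the smallest possible, so none could pass. By the called MXD1 probe set, an alternative chosen after seeing the data, the mean difference was 0.34 instead of 0.03 (exact p = 0.1).

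**Figure D3:**
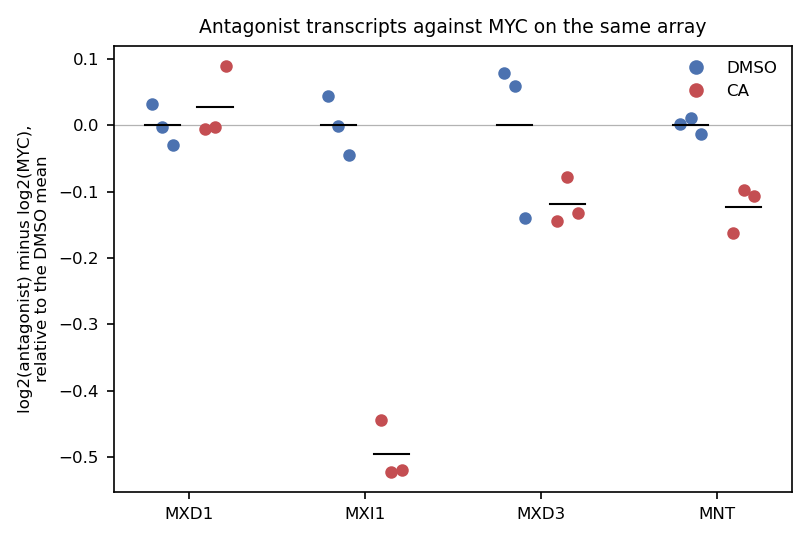
Log2 of each antagonist minus log2 of MYC on the same array, set relative to the DMSO mean, for 4 genes by their brightest probe set, with 1 point per array and a line at each group's mean. CA arrays lie lower in MXI1, by 0.50, and in MNT, by 0.12, and overlap with DMSO in MXD1 and MXD3. The MNT difference is mostly that of MYC (0.09), as MNT itself was at -0.04 and overlapped between groups.

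In the MLX branch none of the 10 probe sets of MLX and MLXIP was called. MLX had 6 probe sets, which measure the same gene and are not replicates of the treatment. On the brightest, 213708_s_at, the DMSO arrays were at 10.54, 10.47 and 10.48 and the CA arrays at 10.24, 10.26 and 10.36. The groups did not overlap, and the difference was -0.21 (SE 0.05, adjusted p = 0.0778), short of a call per probe set. Groups were also apart, with CA lower, on 210752_s_at (-0.20), 217909_s_at (-0.15) and 217910_x_at (-0.11), at adjusted p of 0.200 to 0.267. They overlapped on 1570347_at (-0.14) and on 231401_s_at, which pointed higher (0.18, adjusted p = 0.403).

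The MLX promoter window is shown because, among the measured members that were searched, only MLX and MNT held CACGTG in the 250 bases before a listed start. The motif was found in 6.34% of the 35116 windows of that length. It is in capitals, and begins 50 bases before the MLX start (GRCh38.p14, chr17:42566850-42567099, plus strand) and 193 bases before the MNT start, of which 60 bases are shown (chr17:2401221-2401280, minus strand). The match is a description of these letters. MXD4, which was not measured, held the motif too, 238 bases before its start, and the MYC start was not searched here.
MLX: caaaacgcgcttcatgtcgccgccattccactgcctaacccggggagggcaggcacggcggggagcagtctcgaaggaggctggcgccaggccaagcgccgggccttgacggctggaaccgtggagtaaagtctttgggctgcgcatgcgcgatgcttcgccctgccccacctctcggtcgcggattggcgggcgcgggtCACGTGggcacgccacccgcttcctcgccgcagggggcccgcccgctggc
MNT: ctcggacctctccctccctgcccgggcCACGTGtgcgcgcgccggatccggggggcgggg

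MLXIP, the MLX partner that carries the glucose-responsive region, had 4 probe sets. On 202519_at the DMSO arrays were at 9.34, 9.30 and 9.28 and the CA arrays at 9.15, 9.15 and 9.03. The CA arrays were lower without overlap, by 0.20 (SE 0.05, adjusted p = 0.0959). On 225157_at the change was -0.11 (adjusted p = 0.418), with overlap. The other MLXIP probe sets lay between 3.99 and 4.67 on all arrays, near the lower quartile, and overlapped, with changes of 0.10 and -0.02.

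When each gene was represented by its brightest probe set and p-values were adjusted over 19775 genes, 0 members were called higher and 3 lower of 8 by limma, against 11.1% called among all genes (6.64% higher, 4.49% lower). At an unadjusted p under 0.05, 2 members were higher and 3 lower, where 13.6% of all genes were higher and 11.7% lower. The 3 called members were MXI1 (adjusted p = 0.00222), MLX (0.0351) and MLXIP (0.0442). With 1 array left out at a time MXI1 was called in 6 of 6 fits, MLX in 1, that without CA replicate 3, and MLXIP in 0. The adjusted p of MLX was then 0.0412 to 0.111 and that of MLXIP 0.0827 to 0.125. When a gene's probe sets were averaged, MLX was at -0.10 (adjusted p = 0.262) and MLXIP at -0.06 (0.463). The median change of the 8 genes was -0.03, against -0.00 for all genes.

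**Figure D4:**
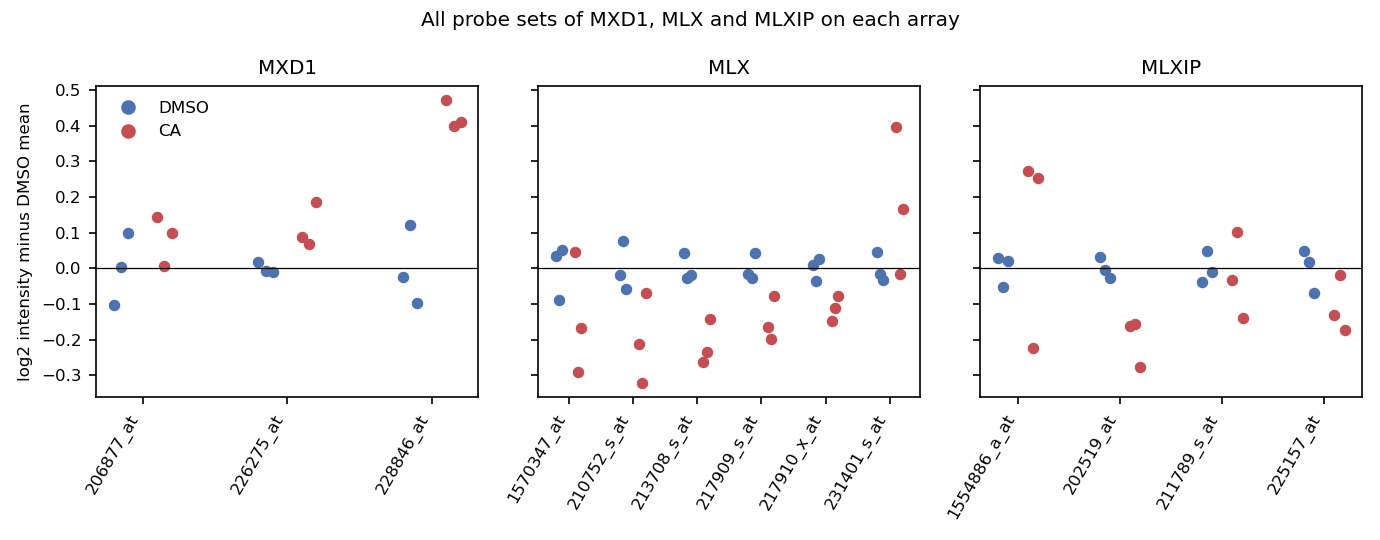
Every probe set of MXD1, MLX and MLXIP on each array, as log2 intensity minus the DMSO mean of that probe set, with DMSO in blue and CA in red. CA points lie above DMSO on 226275_at and 228846_at of MXD1, and below it on 4 of the 6 MLX probe sets and on 202519_at of MLXIP. On 231401_s_at of MLX they spread upward.

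The genes that moved most like a member were taken as those with the smallest root mean square difference from it over the 6 arrays, after subtracting each gene's DMSO mean, among 10996 other genes whose mean log2 was 6 or more. Nearest to MXI1 were TIMP1 (0.0206), SLC22A15 (0.0218) and AGO4 (0.0291). Their own changes were -0.42, -0.41 and -0.37. Genes picked in this way have changes near that of the member, for MXI1 as for the others, so these sizes are not a separate result. Nearest to MYC were C1orf174 (0.00923), SARS1 (0.0102) and ELP2 (0.0105), whose changes of 0.08 to 0.10 were, like that of MYC, not called. Nearest to MLX were ANXA5 (0.0128), INO80C (0.0150) and PRKAG1 (0.0150), and nearest to MLXIP were DST (0.0202), SERTAD2 (0.0242) and SAMD9L (0.0277).

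Partners and targets of the network were examined by gene, in 7 lists. Their counts stand beside 6.64% of all genes called higher and 4.49% lower, and 13.6% higher and 11.7% lower at an unadjusted p under 0.05. Among 4 other network genes, MYCL, a MYC paralog, rose 1.56-fold, from 6.55, 6.65 and 6.83 in DMSO to 7.33, 7.37 and 7.26 in CA (log2 change 0.64, SE 0.08, adjusted p = 0.00384). It was called on 1 of its 2 probe sets, and the other was at -0.02. MYCN (-0.09), MGA (-0.08) and MLXIPL (-0.12) were not called. The list's median was -0.08. Of 9 measured corepressor genes that MXD proteins and MNT recruit, 0 rose and 2 fell (1 and 4 at an unadjusted p under 0.05, which 13.6% and 11.7% of all genes passed; median 0.00). These were SUDS3, a SIN3 complex subunit (-0.35), and the histone deacetylase HDAC1 (-0.24). Both lost their calls in 5 of the 6 fits with 1 array left out (adjusted p up to 0.0675 and 0.0625). SUDS3 was called only without DMSO replicate 3 (adjusted p = 0.0368) and HDAC1 only without CA replicate 3 (0.0280). The scaffolds SIN3A (0.02) and SIN3B (0.06) were not called.

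Of 13 measured coactivators and partners of MYC, 0 rose and 0 fell by limma (2 and 1 at an unadjusted p under 0.05, against 13.6% and 11.7% of all genes; median 0.00). Of 10 genes that act on MYC protein turnover, 1 rose and 0 fell (2 and 2 at an unadjusted p under 0.05, median -0.02). It was USP28, a deubiquitinase that opposes FBXW7 on MYC, at 0.38 (SE 0.07, adjusted p = 0.0179) and called on 2 of its 3 probe sets. FBXW7 itself was at 0.14 (adjusted p = 0.162). The USP28 call held in 2 of the 6 fits with 1 array left out, those without DMSO replicate 1 and without DMSO replicate 2, and adjusted p was up to 0.0697.

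The list of genes that MYC activates had 29 measured members, of which 3 rose and 2 fell (median 0.03), against 6.64% and 4.49% of all genes. At an unadjusted p under 0.05 by limma, 4 were higher and 3 lower, against 13.6% and 11.7% of all genes. TERT, the telomerase catalytic subunit, rose (0.45, adjusted p = 0.00461), as did the transferrin receptor TFRC (0.26) and the nucleolar phosphoprotein NOLC1 (0.22). TFRC was called on 2 of its 5 probe sets, and 2 pointed lower. NOLC1 was called in 4 of the 6 fits with 1 array left out (adjusted p up to 0.0532), and not without CA replicate 2 or without CA replicate 3. The cyclin CCND2 fell (-0.27, adjusted p = 0.00720), called on 1 of its 4 probe sets with 2 pointing higher. ODC1, the rate-limiting enzyme of polyamine synthesis and a classical MYC target, fell from 12.71, 12.67 and 12.69 to 12.44, 12.43 and 12.46 (-0.25, SE 0.03, adjusted p = 0.00699). Nucleolin (NCL, 0.08), NPM1 (0.03), CAD (0.04), LDHA (-0.00) and CDK4 (-0.04) were not called.

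Of 10 genes that MYC represses, 3 rose and 1 fell (median 0.10), and 9 of the 10 had positive differences. Of all genes 6.64% were called higher, 4.49% lower, and 48.8% had positive differences. The uncalled genes of the list were NDRG2 (0.13), CDKN1C (0.11), CDKN2B (0.09), GADD45A (0.04), CLU (0.03) and PDGFRB (0.03). Their adjusted p by limma was 0.254 to 0.841, and CDKN2B and PDGFRB were below the median probe set (5.61). The list was chosen with earlier results of these data known, so its signs are a description only. GAS1, a growth arrest gene, was at 2.01 by 204457_s_at, 1 of its 3 probe sets, and at 0.12 (adjusted p = 0.416) when probe sets whose IDs end in _x_at or _s_at were left out. CDKN1B, which encodes the CDK inhibitor p27, rose from 10.85, 10.95 and 10.89 to 11.46, 11.53 and 11.59 (0.63, SE 0.05, adjusted p = 7.08e-04), and NDRG1, a gene of differentiation and stress, rose by 0.39. CDKN1A, which encodes p21, fell (-0.45, adjusted p = 0.00269). Of 8 genes known as targets of MLX with MLXIP or MLXIPL, 1 rose and 1 fell (median 0.03). The arrestin ARRDC4, a standard MondoA target, rose from 7.23, 7.20 and 7.24 to 7.57, 7.73 and 7.61 (0.41, SE 0.05, adjusted p = 0.00451), and TXNIP, the other such target, was at 0.11 (adjusted p = 0.166). KLF10 fell (-0.25, adjusted p = 0.0260), a call that held in 1 of the 6 fits with 1 array left out, the one without DMSO replicate 3 (adjusted p = 0.0476, and up to 0.0840 in the others).

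**Figure D5:**
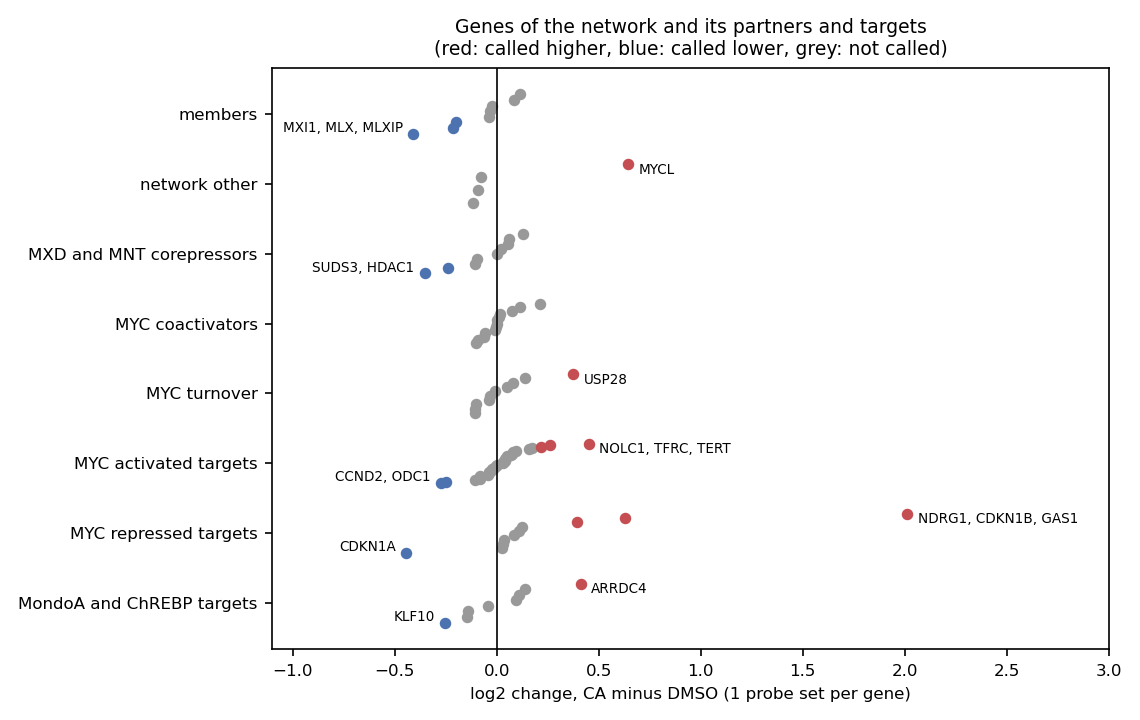
Log2 change of CA minus DMSO for each measured gene of the network and of 7 lists of partners and targets, with 1 probe set and 1 point per gene. Called genes are coloured and named in order along the axis, and the point farthest from 0 is GAS1 at 2.01.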

How the data were processed

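RNA of 3 DMSO and 3 CA samples was measured on 6 arrays; per the labels, a column kit or TRIzol was used for isolation, without saying for which sample. The authors deposited log2 intensities for each probe set, made with RMA and affy, per the submitters' processing notes, which give no versions. RMA corrects background, quantile-normalizes probes and summarises them, which compresses fold changes. Depth does not apply, and the number of arrays limits precision.

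Of 54675 probe sets, 62 controls were left out. The platform annotation gave 41091 of the others 1 gene symbol, 1801 several and 11721 none, and 41037 of the first matched GRCh38.p14 gene names. Both groups were fitted with lmFit and eBayes (limma 3.58.1, R 4.3.3) and CA minus DMSO was tested, 2-sided, with Benjamini-Hochberg adjustment per probe set, and again per gene by the probe set of highest mean. The fit was tested on simulated data. Permutation tests used scipy 1.17.1. Promoters are RefSeq's. Members and lists were chosen with earlier results of these data known. Named were all member probe sets, up to 4 called genes per list and direction, and the 3 genes most like MYC and each called member gene. The main fit did not pair samples by replicate number. Deviations from group means correlated at -0.03 to 0.03 between arrays of the same number and at -0.10 to 0.10 between those of different numbers. With so few arrays this cannot tell whether equal numbers shared a batch.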

Additional observations from a re-analysis of the deposited data

How the results depend on the processing

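MXI1 was called lower per probe set in 16 of 17 alternatives, Holm adjustment being the exception, at changes of -0.44 to -0.37. The called MXD1 probe set stayed positive in all 17, at 0.38 to 0.49, and was called in 10. Member probe sets called lower numbered 3 among probe sets of mean log2 5 or more, and 6 or more, and at adjusted p under 0.1, 5 with an intensity trend and robust moderation, and 0 with Holm. Those called higher numbered 2 with the trend, and 0 with Holm and at adjusted p under 0.01, all by limma. With 1 array left out, 0 to 1 were higher and 1 lower. Over all probe sets, 1639 were higher and 1097 lower, against 2473 and 2030 at mean log2 5 or more, 2892 and 2548 at 6 or more, 3224 and 2849 with the trend, 673 and 295 at adjusted p under 0.01, 119 and 21 with Holm, and 868 and 570 leaving out IDs that end in _x_at or _s_at. At adjusted p under 0.1, 1943 were lower. Leaving out 1 array gave 830 to 902 higher and 396 to 432 lower.

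Centring on reference genes, of which HPRT1 was called lower (-0.21), left 730 lower and moved higher calls from 59.9% to 74.3%. HPRT1 was called on 1 of its 2 probe sets, and the other was at 0.16. Uncalled reference genes were GAPDH (-0.14), YWHAZ (-0.15), SDHA (0.12), ACTB (0.05), TBP (0.01), GUSB (0.01) and PPIA (0.00). The centring turned MAX 209332_s_at (0.017), MXD3 (0.0087), MNT 204206_at (0.0041) and MLXIP 211789_s_at (0.016) positive. On the mean of all probe sets MAX (0.033) and MNT (0.0080) were positive too. These member values were uncalled throughout. With 1 array left out, MAX 208403_x_at ranged from -0.046 to 0.074, MXD3 from -0.090 to 0.0014, MNT 236749_at from -0.0035 to 0.12 and MLXIP 211789_s_at from -0.086 to 0.035.

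With the replicate number as a block, 0 member probe sets were higher and MXD1 228846_at was uncalled (adjusted p = 0.0630), and over all probe sets 768 were higher and 341 lower. Under this block 1 member gene, 0 corepressors and 0 MondoA targets fell. By deviations from group means, no DMSO array correlated best with the CA array of its own number.

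Alternatives for the lists were added after seeing the data. With arrays centred on reference genes, 1 member gene and 0 MondoA targets fell. On the mean of all probe sets, 1 member gene rose and 1 fell, 0 other network genes rose and 1 MYC-activated gene fell. Leaving out IDs that end in _x_at or _s_at, 1 member gene, 1 MYC-activated gene, 0 MYC-repressed genes and 0 MondoA targets fell, and 1 MYC-repressed gene rose. CCND2, CDKN1A, NDRG1 and KLF10 had no probe set left under that setting, so they dropped out of these counts without being tested. With 1 array left out, 1 to 2 member genes, 0 to 1 corepressors and 0 to 1 MondoA targets fell, and 0 to 1 turnover genes and 2 to 3 MYC-activated genes rose. MXD1 minus MYC was 0.12 on the mean of all probe sets and 0.34 by 228846_at, and MNT minus MYC was -0.079 on the mean. By each gene's brightest probe set, antagonist minus MYC with 1 array left out was -0.0042 to 0.044 for MXD1, -0.13 to -0.10 for MNT, -0.19 to -0.08 for MXD3 and -0.52 to -0.47 for MXI1. Apart from the genes that dropped out, the cause of these shifts was not tested. Few arrays and dim probe sets limit what can be called.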
